A study of Mus musculus with 4 samples.

Results

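The mature dendritic cell program is a group of genes that dendritic cells switch on when they mature and travel to lymph nodes. The 10 genes followed here are Ccl17, Ccl22, Fscn1, Il4i1, Nudt17, Relb, Socs2, Cacnb3, Cd63 and Apol7c, taken by their symbols from the 32285 genes of the count tables. Their levels were read in antigen-presenting cells (APCs) and T cells that had been sorted from lymph nodes draining a tumor in wildtype mice. One group ate chow that held RGX-104, which activates the liver X receptors (LXR), from day 3 after tumor cell injection. The other group ate control chow, and in both groups the nodes were taken on day 8. Each chow is represented by 1 RNA library made with 10x 5' chemistry, in which a unique molecular identifier (UMI) marks each captured RNA molecule. The number of mice behind each library and the kind of tumor are not given in the sources used here. With 1 library per chow there is no replicate, so that chow and library cannot be told apart, and no test between chows was possible.

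Immature dendritic cells take up antigen in tissue, and on maturation they gain the chemokine receptor CCR7 and move through lymph vessels to the draining node. There, as migratory cells, they present the antigen to T cells beside resident dendritic cells, which develop in the node itself. Mature cells also stiffen and extend their dendrites, signal through the alternative NF-kappaB pathway, secrete chemokines that draw T cells bearing CCR4, and make enzymes that deplete amino acids around T cells.

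The RGX-104 library held 38480769 UMIs in 8671 barcodes and the control library 31530931 UMIs in 7346 barcodes. The authors' annotation names 949 APCs in the RGX-104 library and 782 in the control library, in 10 types. The migratory types are mcDC1 (214 RGX-104 and 166 control cells), mcDC2 (104 and 57 cells), mLC (134 and 146 cells) and Gm26917+ mcDC (32 and 12 cells). The resident types rcDC1 (138 and 135 cells) and rcDC2 (167 and 87 cells), and mono (78 and 75 cells), also had at least 50 cells per library. The chows were compared in the 6 types that had this many cells. Values of the other types are given by library, but do not enter the counts of the 10 genes past 1.5-fold. The names were checked against markers. Ccr7 stood at 3187 CPM in RGX-104 mcDC1 and 3563 CPM in control mcDC1, against 96.3 and 69.6 CPM in rcDC1 of the same libraries, where CPM is UMIs of a gene per 1000000 UMIs of the cells summed. The Langerhans cell marker Epcam was at 110 CPM in RGX-104 mLC and 109 CPM in control mLC, and at or below 13.4 CPM in mcDC1 and mcDC2. Cd207, another Langerhans cell marker, was at 84.3 and 53.5 CPM in mLC, but also at 93.9 and 37.3 CPM in rcDC1. The 5 Langerhans cell markers summed to 247 and 210 CPM in mLC, but to 389 and 302 CPM in rcDC1. In pre-DC2 they summed to 203 and 236 CPM, so that this sum does not set mLC apart. Xcr1, which defines cDC1, had 9 and 6 UMIs in mcDC1 against 909 and 652 UMIs in rcDC1, so that the name mcDC1 does not rest on Xcr1 RNA. Markers of cDC2 were low in mcDC2 as well, with Cd209a at 23.6 and 51.7 CPM and Mgl2 at 1 and 0 UMIs in mcDC2, against 333 and 379 CPM and 95 and 36 UMIs in rcDC2. The 8 cDC2 markers summed to 188 and 267 CPM in mcDC2 and to 1107 and 1112 CPM in rcDC2. The LXR targets Abca1, Abcg1, Srebf1 and Scd2 each stood at least 1.5-fold above control in all 6 compared types of the RGX-104 library. The libraries shared 95 barcodes, of which 1 belonged to an annotated APC.

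Ccl22 and Ccl17 lie on chromosome 8, at chr8:94745684-94751388 and chr8:94809380-94812038 of GRCm38.p6. The 250 bases upstream of their RefSeq start sites are shown because these genes were the ones higher in the RGX-104 library in each migratory type compared, and that of Apol7c because it is the other one that held the letters searched for. Capitals mark TTCNNNNGAA, the letters bound by STAT6, the factor through which interleukin 4 acts. The windows are chr8:94810203-94810452 (plus strand) for Ccl17, which starts inside the longer annotated span of the gene, chr8:94745434-94745683 (plus strand) for Ccl22, and chr15:77533316-77533565 (minus strand) for Apol7c. The last bases of the Apol7c window also lie inside the annotated span of that gene. Each is written 5' to 3'.
Ccl17: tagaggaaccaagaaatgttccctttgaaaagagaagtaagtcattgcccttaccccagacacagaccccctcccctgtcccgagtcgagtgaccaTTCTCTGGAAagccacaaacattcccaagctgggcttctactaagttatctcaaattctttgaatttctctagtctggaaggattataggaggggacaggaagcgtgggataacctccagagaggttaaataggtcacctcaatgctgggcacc
Ccl22: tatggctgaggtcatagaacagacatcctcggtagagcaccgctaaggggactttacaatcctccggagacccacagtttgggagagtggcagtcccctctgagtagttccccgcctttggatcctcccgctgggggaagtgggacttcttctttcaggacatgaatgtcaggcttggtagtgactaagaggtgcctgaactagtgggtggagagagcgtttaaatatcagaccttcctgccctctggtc
Apol7c: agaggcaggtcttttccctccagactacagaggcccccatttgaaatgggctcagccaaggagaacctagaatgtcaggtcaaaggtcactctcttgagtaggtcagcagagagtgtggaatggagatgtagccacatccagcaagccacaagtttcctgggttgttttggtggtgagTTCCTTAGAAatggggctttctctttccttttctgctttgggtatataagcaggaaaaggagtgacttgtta
The Ccl17 match, TTCTCTGGAA, begins 154 bases before the start site and the Apol7c match, TTCCTTAGAA, begins 72 bases before it. RefSeq windows were at hand for 8 of the 10 genes, and 2 of the 8 held this motif on either strand, against 5.85% of 32851 mouse promoters of the same length. The kappaB consensus, the site of NF-kappaB, matched in 0 of the 8 genes and in 3.90% of all promoters. The LXR letters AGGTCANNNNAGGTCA matched in 0 of the 8 genes and in 5 of all promoters. These are matches of letters in a short window on both strands, and they show neither binding nor its absence.

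Together the 10 genes made up 1.11% of the UMIs of RGX-104 mcDC1 and 1.30% of those of control mcDC1. In mcDC2 they made up 1.20% in the RGX-104 library and 0.956% in the control library, and in mLC 1.43% and 1.47%. In rcDC1 they made up 0.0200% and 0.0116%, in rcDC2 0.0573% and 0.0477%, and in T cells 0.00667% and 0.00644%. Every one of the 10 genes was therefore measured mostly in migratory cells. The lowest level among mcDC1, mcDC2 and mLC lay above the highest level of any other type except Gm26917+ mcDC for 10 of 10 genes in the RGX-104 library and for 9 of 10 in the control library. The exception was Cd63, which stood at 847 CPM in control mcDC2 and 854 CPM in control macrophages. The types are the authors' clusters of these same cells, so levels between types are descriptions and not tests.

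**Figure D1:**
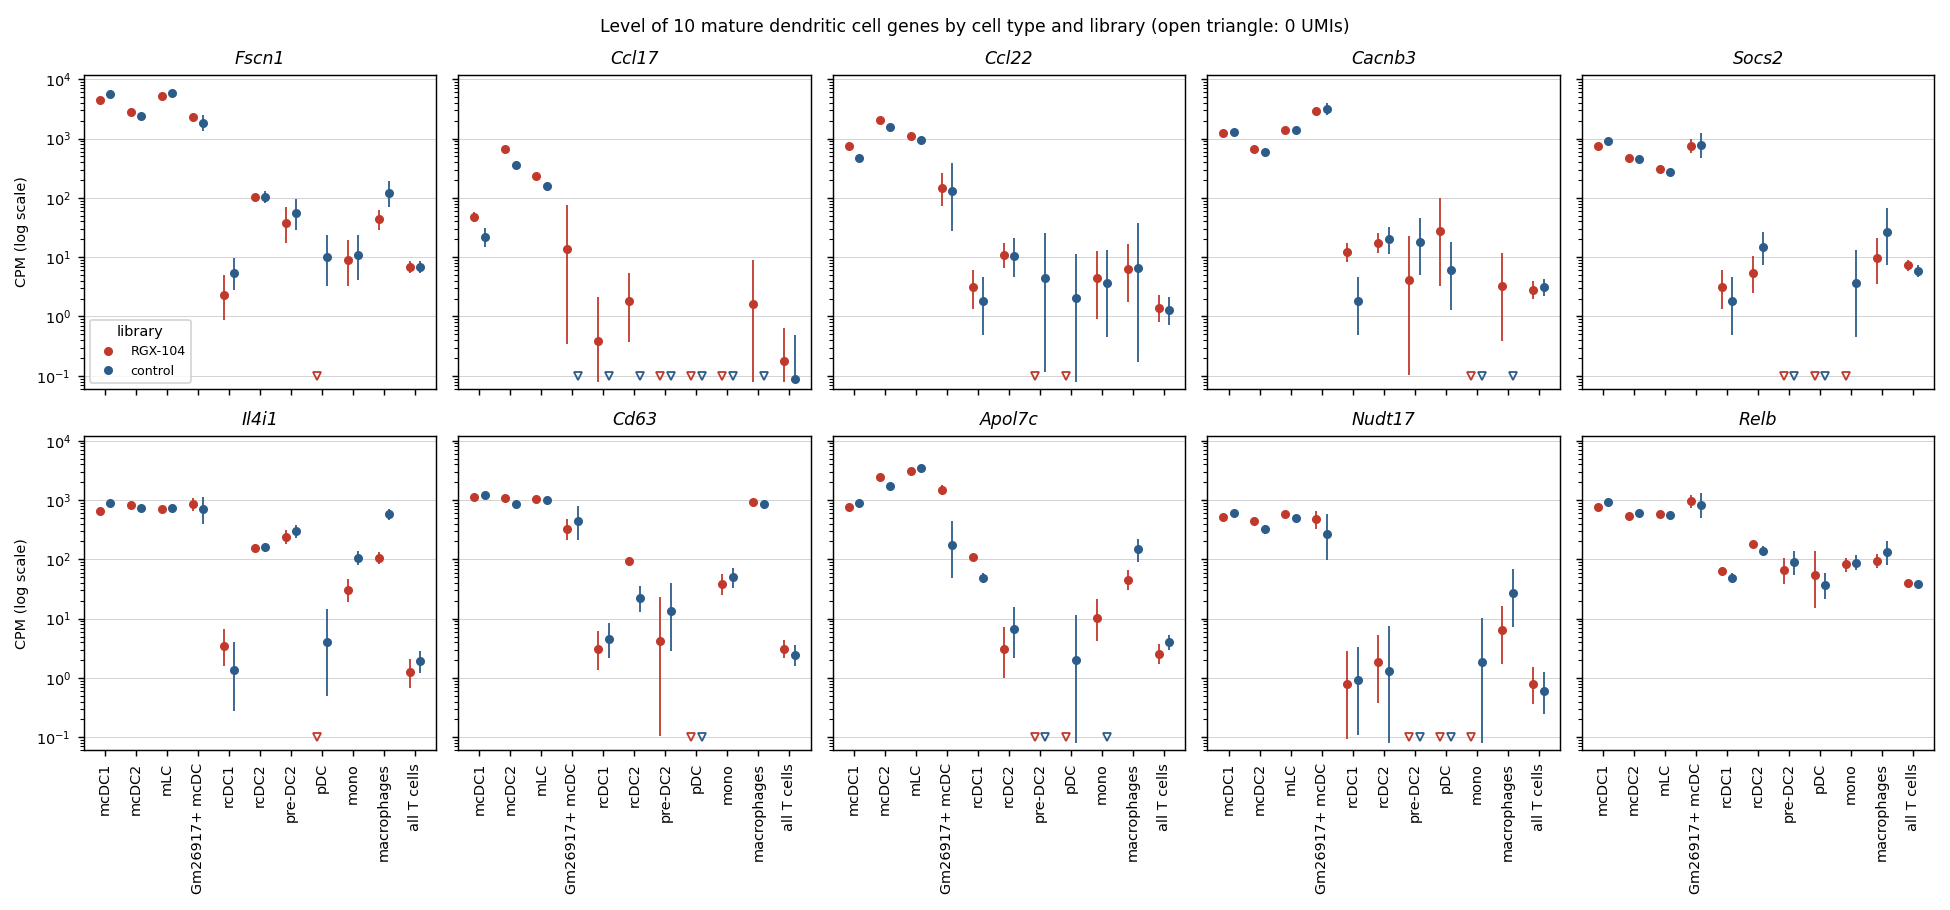
Level of each of the 10 genes in CPM (log scale) in the 10 APC types and in all T cells, RGX-104 library left and control library right within each type. Bars are exact 95% Poisson intervals, which cover counting error only and are clipped at the lower edge of the axis, and open triangles mark 0 UMIs. The left 4 types, which are the migratory ones, lie above the rest in most panels, and Ccl17 is at or near 0 elsewhere.

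Cells were then thinned to 2000 UMIs each, by drawing that number of UMIs at random and leaving out shallower cells, so that cells of different depth could be compared. The median number of the 10 genes with a UMI was 6 in RGX-104 mcDC1 and 7 in control mcDC1. In mcDC2 the median was 7 in the RGX-104 library and 6 in the control library, and in mLC it was also 7 and 6. In rcDC1 and mono it was 0 in both libraries, in rcDC2 it was 1 and 0, and in macrophages 1 and 2. Cells with 5 or more of the genes made up 82.6% of RGX-104 mcDC1 (176 of 213 cells, exact binomial 95% interval 76.9 to 87.5%) and 86.5% of control mcDC1 (141 of 163 cells, 80.3 to 91.3%). In mcDC2 the share was 90.3% in the RGX-104 library (93 of 103 cells, 82.9 to 95.2%) and 78.6% in the control library (44 of 56 cells, 65.6 to 88.4%). In mLC it was 93.9% in the RGX-104 library (88.3 to 97.3%) and 94.4% in the control library (89.3 to 97.6%). The intervals of the libraries overlapped in all 3 types. Among rcDC2, 1 of 164 RGX-104 cells and 0 of 85 control cells reached 5 genes. No T cell reached 5 genes, of 1968 in the RGX-104 library and 2058 in the control library, with upper interval limits of 0.187% and 0.179%. Most migratory cells thus held several of the genes at once, and 1 such cell was seen among the other types.

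**Figure D2:**
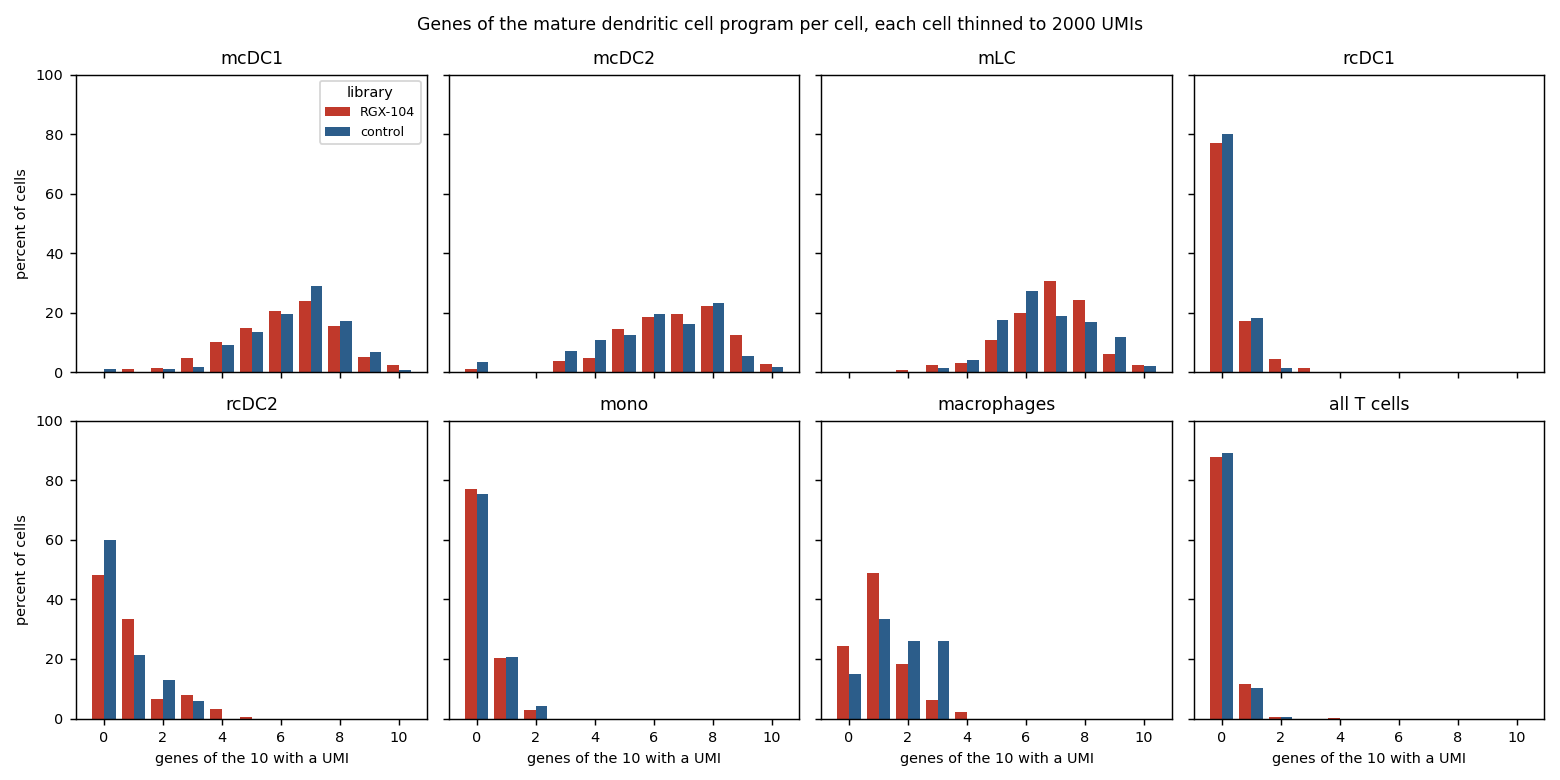
Percent of cells (vertical axis) by the number of the 10 genes with at least 1 UMI after thinning to 2000 UMIs (horizontal axis), RGX-104 library left and control library right in each pair of bars. Medians lie at 6 or 7 genes in mcDC1, mcDC2 and mLC, and at 0 to 2 genes in the other types shown.

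Each migratory type was then set against its resident counterpart within the same library, mcDC1 against rcDC1 and mcDC2 against rcDC2. Of the genes with at least 50 UMIs in the pair, 30.5% stood at least 1.5-fold higher in mcDC1 than in rcDC1 within the RGX-104 library and 30.4% within the control library. For mcDC2 over rcDC2 the shares were 16.9% and 18.5%. All 10 genes were among those higher in both pairs and both libraries, except that Ccl17 had under 50 UMIs in the cDC1 pair of the control library. Some folds rest on few UMIs in the resident cells, and only the lower limit of their conditional binomial 95% interval is given. Fscn1 had 6 UMIs in RGX-104 rcDC1 and 12 in control rcDC1, below its CPM in T cells, and these lower limits were 881-fold and 600.1-fold. With thinned cells its log2 ratio in the RGX-104 library was 9.22 in place of 10.91. Nudt17 had 2 UMIs in rcDC1 of each library, with lower limits of 181-fold and 180.4-fold. Apol7c was less separated in that pair, at 6.96-fold (6.12 to 7.94) in the RGX-104 library and 18.2-fold (14.9 to 22.3) in the control library, because rcDC1 themselves held Apol7c. In mcDC2 over rcDC2, Apol7c rested on 5 UMIs in rcDC2 of each library, with lower limits of 341-fold and 109.9-fold. Relb had the lowest ratio of the 10 genes in mcDC2 over rcDC2, 2.94-fold (2.54 to 3.41) in the RGX-104 library and 4.34-fold (3.45 to 5.50) in the control library. Il4i1 was second lowest there, at 5.17-fold and 4.62-fold, with levels of 158 and 159 CPM in rcDC2. Ccl17 had 0 UMIs in rcDC1 and rcDC2 of the control library. Against a floor of 3 UMIs per library it was at least 15.8-fold higher in control mcDC1 than in control rcDC1, and at least 91.0-fold higher in control mcDC2 than in control rcDC2.

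**Figure D3:**
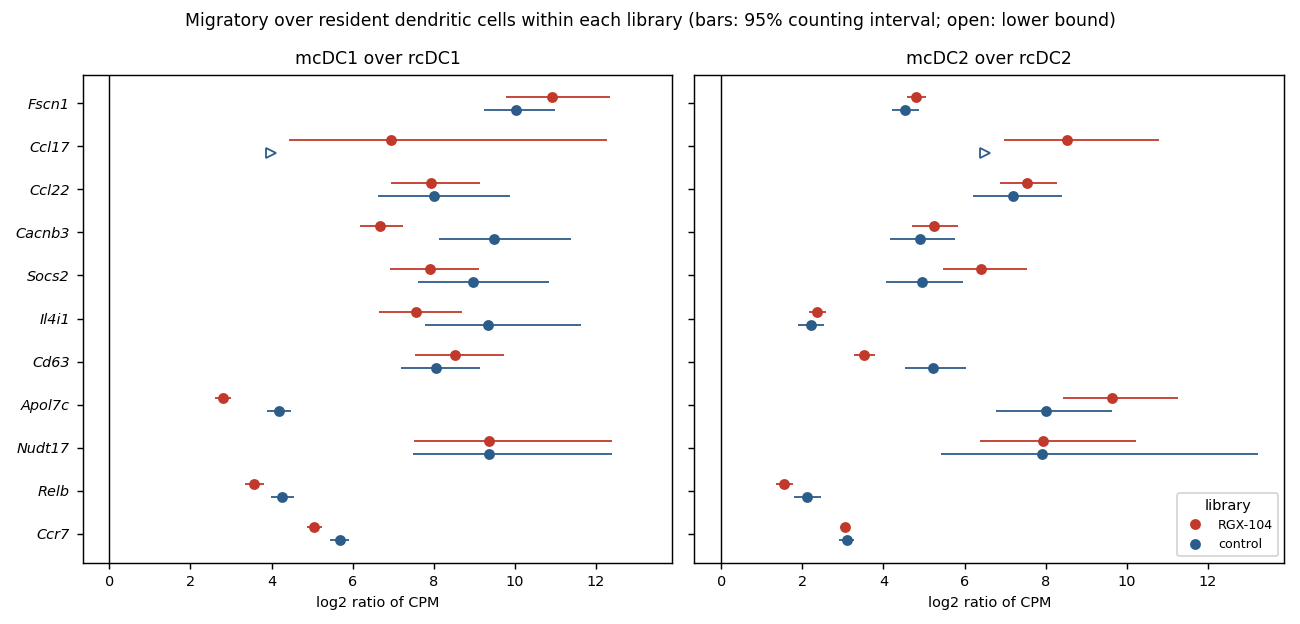
Log2 ratio of CPM of mcDC1 over rcDC1 (left) and mcDC2 over rcDC2 (right) for the 10 genes and Ccr7, RGX-104 library above control library in each row. Bars are 95% intervals that cover counting error only, and open triangles are lower bounds against 3 UMIs. All points lie above 0, from a log2 ratio of 1.56 for Relb in mcDC2 over rcDC2 to 10.91 for Fscn1 in mcDC1 over rcDC1, both in the RGX-104 library, of which the second rests on 6 UMIs in rcDC1.

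For the chow comparison a gene counted as measured in a type with at least 50 UMIs over both libraries. This left 39 of the 60 pairs of a gene and a type, all 10 genes in mcDC1, mcDC2 and mLC, 2 in rcDC1, 4 in rcDC2 and 3 in mono. Of the 39 pairs, 5 stood at least 1.5-fold above control (12.8%), against a background of 5.34% over all gene and type pairs. In the other direction 1 pair was at least 1.5-fold lower (2.56%), against a background of 5.36%. The 5 higher pairs were Ccl17 in mcDC1 and mcDC2, Ccl22 in mcDC1, Cd63 in rcDC2 and Apol7c in rcDC1, and the lower pair was Il4i1 in mono. In mcDC1, mcDC2 and mLC the 3 pairs past 1.5-fold were thus of the chemokines, from summed UMIs. With TMM or median-of-ratios scaling the higher pairs were 7, since Apol7c (log2 ratios of 0.63 and 0.64) and Nudt17 (0.61 and 0.62) in mcDC2 passed 1.5-fold as well.

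**Figure D4:**
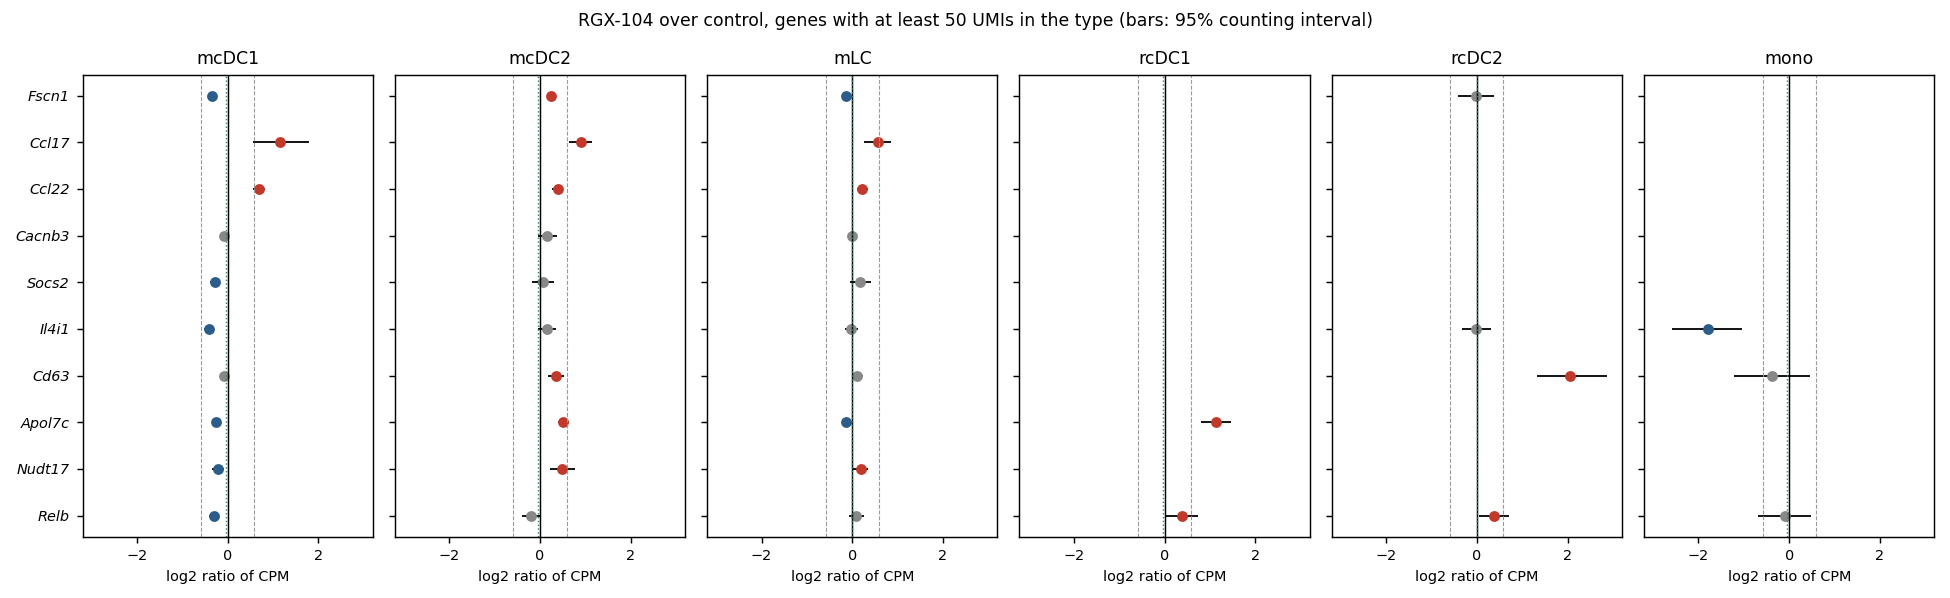
Log2 ratio of CPM, RGX-104 over control, for each gene with at least 50 UMIs in the type, in the 6 compared APC types. Bars are 95% intervals that cover counting error only, red and blue points have intervals above and below 0, the dashed lines mark 1.5-fold, and the dotted line is the median of all measured genes. Ccl17 and Ccl22 lie right of 0 in the 3 migratory types, and 6 of 10 points are blue in mcDC1, a count without a background over all genes.

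The direction of the other genes varied by type, a difference that was not tested. In mcDC1, 2 of the 10 genes were at least 1.5-fold higher (background 4.46%) and 0 were at least 1.5-fold lower (background 5.6%), but the intervals of 6 genes lay below 1, those of Fscn1, Il4i1, Relb, Socs2, Apol7c and Nudt17. The median log2 ratio of the 10 genes there was -0.23, beside -0.03 over all 6074 genes measured in mcDC1. In mcDC2, 1 gene was at least 1.5-fold higher (background 6.39%) and 0 were lower (background 7.34%), and the intervals of 6 genes lay above 1 and of 0 below. The median there was 0.30, beside -0.04 over 3162 genes. In mLC, 0 of the genes passed 1.5-fold in either direction (background 4.08% higher and 4.76% lower), with a median of 0.10 beside -0.01 over 4537 genes. The intervals of 3 genes lay above 1 there and of 2 below. Genes with many UMIs have narrow intervals that can exclude 1 at small ratios. The share of all genes with intervals clear of 1 was not taken in any type, so these interval counts have no background. Scaling mcDC2 by TMM factors instead of totals added 0.12 to the log2 ratio of every gene in that type. Other markers moved too. The 4 proliferation markers were all at least 1.5-fold lower in RGX-104 mcDC2, with summed levels of 145 CPM in the RGX-104 library and 454 CPM in the control library. In mcDC1, 5 of 6 neutrophil markers had UMIs in the RGX-104 library and 0 of 6 in the control library, with summed levels of 898 and 0 CPM. The part of either list in these ratios was not tested.

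Ccl17 and Ccl22 encode secreted chemokines that bind CCR4 on T cells. Ccl17 stood at 672 CPM in RGX-104 mcDC2 (621 to 725, exact Poisson 95% interval), against 362 CPM in control mcDC2 (308 to 422), from 654 and 161 UMIs. In mLC it stood at 229.6 CPM in the RGX-104 library (201 to 261) and 156 CPM in the control library (133 to 182). In mcDC1 it stood at 48.3 CPM in the RGX-104 library (39.2 to 58.8) and 21.6 CPM in the control library (14.7 to 30.6). In each of these types the RGX-104 level was higher and the intervals of the libraries did not overlap. These intervals cover counting error only, and not the spread between cells or mice. The ratios, RGX-104 over control, were 1.86 in mcDC2 (1.56 to 2.22), 1.47 in mLC (1.20 to 1.81) and 2.24 in mcDC1 (1.48 to 3.47). Over the alternatives run, the log2 ratio stayed between 0.75 and 1.07 in mcDC2, 0.49 and 0.73 in mLC, and 1.16 and 1.39 in mcDC1. Outside the migratory types Ccl17 had between 0 and 3 UMIs per type and library.

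Few cells carried most of the Ccl17 RNA. The 11 mcDC2 with most Ccl17 held 74.6% of its UMIs in the RGX-104 library, and the top 6 held 64.0% in the control library. A single cell held 20.5% of the Ccl17 UMIs of RGX-104 mcDC2 and 29.8% of those of control mcDC2. After thinning, 34.0% of RGX-104 mcDC2 (35 of 103 cells, 24.9 to 44.0%) and 28.6% of control mcDC2 (16 of 56 cells, 17.3 to 42.2%) held a Ccl17 UMI. In mLC these shares were 25.2% (18.0 to 33.5%) and 18.9% (12.8 to 26.3%), and in mcDC1 8.92% (5.46 to 13.6%) and 3.68% (1.36 to 7.84%). The shares were higher in the RGX-104 library in all 3 types, with overlapping intervals. In T cells, taken as the level that free RNA can give, 0 of 1968 RGX-104 cells and 1 of 2058 control cells held one. Without thinning the median depth was 8404 UMIs in RGX-104 mcDC2 and 7346 UMIs in control mcDC2.

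Ccl22 followed the same order of types and was found in more cells. It stood at 2028 CPM in RGX-104 mcDC2 (1940 to 2119.9) and 1548 CPM in control mcDC2 (1434 to 1668), from 1975 and 689 UMIs. In mLC it stood at 1120.05 CPM in the RGX-104 library (1056 to 1187) and 963 CPM in the control library (905 to 1024). In mcDC1 it stood at 756 CPM in the RGX-104 library (719 to 794) and 465 CPM in the control library (431 to 502). The RGX-104 over control ratios were 1.31 in mcDC2 (1.20 to 1.43), 1.16 in mLC (1.07 to 1.27) and 1.62 in mcDC1 (1.48 to 1.78). The mcDC2 value turned on how cells were weighted. Its log2 ratio was 0.39 from summed UMIs, 0.05 after thinning, 0.59 without the cell with most Ccl22 in each library, and -0.00090 as a mean of the CPM of single cells. In control mcDC2 that top cell held 17.9% of the Ccl22 UMIs, against 6.58% in RGX-104 mcDC2. After thinning, 63.1% of RGX-104 mcDC2 (53.0 to 72.4%) and 44.6% of control mcDC2 (31.3 to 58.5%) held a Ccl22 UMI. In mcDC1 the shares were 47.9% (41.0 to 54.8%) and 32.5% (25.4 to 40.3%), and in mLC 68.7% (60.02 to 76.5%) and 58.0% (49.5 to 66.2%). The intervals of the libraries were apart in mcDC1 and overlapped in mcDC2 and mLC. They take the cells of 1 library each as units, which is no test between chows.

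Ccl17 and Ccl22 tended to be in the same cells. Among thinned RGX-104 mcDC2 with a Ccl17 UMI, 82.9% also held Ccl22 (29 of 35 cells), against 52.9% of those without. In control mcDC2 the shares were 56.3% (9 of 16 cells) and 40.0%. In mLC they were 87.9% and 62.2% in the RGX-104 library, and 77.8% and 53.4% in the control library. In mcDC1 they were 89.5% and 43.8% in the RGX-104 library, and 66.7% (4 of 6 cells) and 31.2% in the control library. The share was higher in cells with Ccl17 in each of these 6 groups of cells, but counting error was wide. The intervals of the shares with and without Ccl17 were apart in mcDC1 and mcDC2 of the RGX-104 library only. They overlapped in RGX-104 mLC, and in mcDC1, mcDC2 and mLC of the control library. In both libraries both chemokines were highest in mcDC2, then mLC, then mcDC1 among all types, with each step outside counting error. Their receptor gene Ccr4 had 0 UMIs in RGX-104 APCs and 1 UMI in control APCs. In T cells Ccr4 stood at 6.90 CPM in the RGX-104 library and 7.59 CPM in the control library, a ratio of 0.91 (0.66 to 1.25). It was highest in Tfh at 50.2 and 38.5 CPM, in Treg at 44.6 and 67.1 CPM and in gd T cells at 44.5 and 24.1 CPM, with overlapping intervals between libraries in each.

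Fscn1, at chr5:142960355-142973189, encodes fascin, which bundles actin into the long dendrites of mature cells. It stood at 4488 CPM in RGX-104 mcDC1 (4397 to 4581) and 5725 CPM in control mcDC1 (5602 to 5850.3), a ratio of 0.78 (0.76 to 0.81). In mcDC2 it stood at 2849 CPM in the RGX-104 library and 2392 CPM in the control library, a ratio of 1.19 (1.11 to 1.28). In mLC it stood at 5222 CPM in the RGX-104 library and 5776 CPM in the control library, a ratio of 0.90 (0.87 to 0.94). The direction therefore differed between mcDC1 and mcDC2. In mLC it was lost with thinning, where the log2 ratio was 0.03 in place of -0.15. Nearly every cell of 3 migratory types held Fscn1 after thinning, 97.2% of RGX-104 and 96.9% of control mcDC1, 94.2% and 92.9% of mcDC2, and 131 of 131 and 142 of 143 mLC. Of the Gm26917+ mcDC, 12 of 17 RGX-104 and 4 of 5 control cells held it. T cells held a Fscn1 UMI in 1.68% and 1.36% of cells, and rcDC1 in 1.49% and 0.763%, which is no more than that background. In rcDC2 13.4% and 10.6% of cells held it, with levels of 102 and 103 CPM and a ratio of 0.98 (0.75 to 1.31). Fscn1 was highest in mLC in both libraries, and mLC and mcDC1 did not differ beyond counting error in the control library.

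Il4i1, at chr7:44836288-44840809, encodes a secreted oxidase of aromatic amino acids that restrains T cells. It stood at 666 CPM in RGX-104 mcDC1 (631 to 702) and 885 CPM in control mcDC1 (837 to 935), a ratio of 0.75 (0.70 to 0.81). In mcDC2 its levels were 816 and 734 CPM with a ratio of 1.11 (0.98 to 1.27), and in mLC 712 and 722 CPM with a ratio of 0.99 (0.89 to 1.09). After thinning the log2 ratios of these types were 0.61 and -0.29, in place of 0.15 and -0.02. Its order among the migratory types changed with the library, with mcDC2 highest of mcDC1, mcDC2 and mLC in the RGX-104 library and mcDC1 highest of them in the control library. Like Cd63, Relb, Fscn1 and Apol7c, Il4i1 was also present outside migratory cells. It stood at 158 CPM in RGX-104 rcDC2 and 159 CPM in control rcDC2, and at 239.7 and 299.9 CPM in the few pre-DC2. The rcDC2 log2 ratio was -0.01 from summed UMIs and 0.99 after thinning. Of thinned rcDC2 with Il4i1, 55.6% in the RGX-104 library (20 of 36 cells) and 64.3% in the control library (9 of 14 cells) also held Ccr7, against 24.2% and 28.2% of rcDC2 without it. In mono it stood at 30.8 CPM in the RGX-104 library (21 UMIs) and 107 CPM in the control library (58 UMIs), a ratio of 0.29 (0.17 to 0.48), in a type where 7.8% of all measured genes passed 1.5-fold upward and 10.0% downward. The 4 proliferation markers, all with UMIs in both libraries, summed to 32.3 CPM in RGX-104 mono and 173 CPM in control mono, and their part in this result was not tested. In macrophages it stood at 106 CPM in the RGX-104 library and 574 CPM in the control library, of 52 and 27 cells, and 1 cell held 42.4% of these UMIs in the RGX-104 library and 43.0% in the control library. The background there was wide, with 42.5% of genes past 1.5-fold upward and 19.5% downward, and median depths of 11398 and 4415 UMIs. After thinning, 16.3% of RGX-104 macrophages (7.32 to 29.7%) and 40.7% of control macrophages (22.4 to 61.2%) held an Il4i1 UMI.

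Nudt17, at chr3:96705892-96708916, encodes a Nudix hydrolase, an enzyme family that cleaves nucleoside diphosphate derivatives. It stood at 511 CPM in RGX-104 mcDC1 and 595 CPM in control mcDC1, a ratio of 0.86 (0.78 to 0.94). In mcDC2 it stood at 447 CPM in the RGX-104 library and 319 CPM in the control library, a ratio of 1.40 (1.16 to 1.71) that thinning brought to a log2 ratio of 0.10 in place of 0.49. In mLC its levels were 573 CPM in the RGX-104 library and 505 CPM in the control library, a ratio of 1.14 (1.01 to 1.28). From summed UMIs it was thus lower in mcDC1 and higher in mcDC2 and mLC, of which the mcDC2 difference was small after thinning. With 0 to 4 UMIs per library in each of rcDC1, rcDC2, pre-DC2, pDC, mono and macrophages, and in 0.203% and 0.146% of thinned T cells, it was close to absent elsewhere at this depth.

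Relb, at chr7:19606217-19629438, encodes the NF-kappaB subunit that carries the alternative pathway and that dendritic cells need to mature. It stood at 759 CPM in RGX-104 mcDC1 (722 to 798) and 942 CPM in control mcDC1 (892 to 993), a ratio of 0.81 (0.75 to 0.87). In mcDC2 the levels were 529 and 604 CPM, a ratio of 0.88 (0.75 to 1.02), and in mLC 585 and 549 CPM, a ratio of 1.07 (0.95 to 1.20). In rcDC1 it stood at 63.9 CPM in the RGX-104 library and 49.1 CPM in the control library, a ratio of 1.30 (1.01 to 1.67). In rcDC2 it stood at 179.8 CPM in the RGX-104 library and 139 CPM in the control library, a ratio of 1.29 (1.03 to 1.63). From summed UMIs Relb was therefore lower in mcDC1 and higher in both resident types, each by less than 1.5-fold. The resident intervals lay close to 1. Its mono ratio of 0.93 (0.62 to 1.40) spanned 1, with a log2 ratio of 1.12 after thinning. T cells held Relb at 40.6 and 38.1 CPM. After thinning, 7.62% of RGX-104 and 6.41% of control T cells held a Relb UMI, beside 11.9% and 12.2% of rcDC1 and 51 of 164 and 17 of 85 rcDC2. The share of rcDC1 was thus not higher in the RGX-104 library. Among mcDC1, mcDC2 and mLC it was highest in mcDC1 in both libraries.

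Socs2, at chr10:95383903-95417321, encodes a suppressor of cytokine signaling that binds activated receptors and ends JAK-STAT signals. It stood at 751 CPM in RGX-104 mcDC1 and 911 CPM in control mcDC1, a ratio of 0.82 (0.76 to 0.89). In mcDC2 the levels were 467 and 447 CPM and in mLC 304 and 269 CPM, and both intervals of the ratio included 1. The mLC log2 ratio was 0.18 from summed UMIs and -0.22 after thinning. Among these 3 types the level was highest in mcDC1, then mcDC2, then mLC in both libraries, each step outside counting error. After thinning, 66.2% of RGX-104 mcDC1 (59.4 to 72.5%) and 79.8% of control mcDC1 (72.8 to 85.6%) held a Socs2 UMI. These intervals take the cells of 1 library each as units, so their distance is no test between chows. In rcDC1 and rcDC2 it had 4 to 11 UMIs per library.

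Cacnb3, at chr15:98628436-98644536, encodes the beta 3 subunit of voltage-gated calcium channels. Its levels differed little between chows from summed UMIs. It stood at 1241 CPM in RGX-104 mcDC1 and 1313 CPM in control mcDC1, a ratio of 0.95 (0.89 to 1.004). In mcDC2 the levels were 667 and 597 CPM, a ratio of 1.12 (0.97 to 1.29) that stood at a log2 ratio of 0.42 after thinning. In mLC they were 1376 and 1374 CPM, a ratio of 1.001 (0.93 to 1.08). In rcDC1 it had 31 UMIs in the RGX-104 library, of which 1 cell held 71.0%, against 4 UMIs in the control library.

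Cd63, at chr10:128896231-128912822, encodes a tetraspanin of late endosomes and lysosomes, compartments in which antigen is processed. It stood at 1147 CPM in RGX-104 mcDC1 and 1219 CPM in control mcDC1, a ratio of 0.94 (0.88 to 1.001). In mcDC2 it stood at 1077 CPM in the RGX-104 library and 847 CPM in the control library, a ratio of 1.27 (1.13 to 1.44), and in mLC at 1059.98 and 984 CPM, a ratio of 1.08 (0.99 to 1.17). Macrophages held it at 914 CPM in the RGX-104 library and 854 CPM in the control library. In rcDC2 it stood at 93.2 CPM in the RGX-104 library (153 UMIs) and 22.5 CPM in the control library (17 UMIs), a ratio of 4.14 (2.50 to 7.29), in a type where 6.77% of genes passed 1.5-fold upward and 3.98% downward. The Cd63 UMIs of rcDC2 lay in few cells in both libraries, 85.0% in 17 RGX-104 cells and 88.2% in 9 control cells. After thinning, 11.0% of RGX-104 rcDC2 (6.64 to 16.8%) and 9.41% of control rcDC2 (4.15 to 17.7%) held a Cd63 UMI, and the log2 ratio was 1.17 in place of 2.05. Summed macrophage markers were at 492 and 474 CPM in rcDC2, with 1 and 2 of the 8 markers at 0, and their part in this result was not tested. In mono Cd63 had 26 and 27 UMIs, a ratio of 0.77 (0.43 to 1.37), and the log2 ratio was 0.48 in place of -0.38 without the cell with most Cd63 in each library. T cells held Cd63 in 0.711% and 0.243% of thinned cells.

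Apol7c, at chr15:77524852-77533335, belongs to the apolipoprotein L family. Among mcDC1, mcDC2 and mLC it was highest in mLC, then mcDC2, then mcDC1 in both libraries. In mLC it stood at 3121 CPM in the RGX-104 library (3014 to 3230.5) and 3422 CPM in the control library (3310.5 to 3536), a ratio of 0.91 (0.87 to 0.96). In mcDC2 it stood at 2431 CPM in the RGX-104 library (2334 to 2531) and 1707 CPM in the control library (1588 to 1833), a ratio of 1.42 (1.31 to 1.55). In mcDC1 it stood at 751 CPM in the RGX-104 library and 892 CPM in the control library, a ratio of 0.84 (0.78 to 0.91), which thinning brought to a log2 ratio of -0.01. From summed UMIs the directions in mcDC2 and mcDC1 thus differed. In rcDC1 it stood at 108 CPM in the RGX-104 library (95.6 to 121) and 49.1 CPM in the control library (40.3 to 59.3), a ratio of 2.20 (1.75 to 2.77), in a type where 4.2% of genes passed 1.5-fold upward and 3.45% downward. The migratory marker Ccr7 stood at 96.3 CPM in RGX-104 rcDC1 and 69.6 CPM in control rcDC1, a ratio of 1.38 (1.13 to 1.70). Its part in the rcDC1 results of Apol7c and Relb was not tested. The Apol7c signal was uneven, as 14 cells held 88.1% of these UMIs in the RGX-104 library and 92.6% in the control library. After thinning, 13.4% of RGX-104 rcDC1 (8.16 to 20.4%) and 6.11% of control rcDC1 (2.67 to 11.7%) held an Apol7c UMI, above the 0.610% and 0.972% of T cells. Of thinned rcDC1 with Apol7c, 5 of 18 RGX-104 cells and 1 of 8 control cells also held Ccr7. In rcDC2 it had 5 UMIs in each library.

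The Gm26917+ mcDC are a small migratory cluster of shallow cells, with medians of 2048 UMIs in the RGX-104 library and 1973 UMIs in the control library. They held Cacnb3 at 2897 CPM in the RGX-104 library (2522 to 3312) and 3160 CPM in the control library (2472 to 3979), the highest level of any type. Ribosomal protein genes took 7.09% of the UMIs of these RGX-104 cells and 6.04% of those of the control cells, against 13.7 to 22.5% in the other migratory types, and the part of this in the levels was not tested. Fscn1 stood at 2342 and 1843 CPM, Relb at 948 and 834 CPM, Il4i1 at 853 and 702 CPM, and Socs2 at 758 and 789.9 CPM in the RGX-104 and control libraries, with overlapping intervals for each gene. Apol7c stood at 1476 CPM in the RGX-104 library (109 UMIs, 1212 to 1780.04) and 176 CPM in the control library (4 UMIs, 47.8 to 449), a ratio of 8.41 (3.19 to 31.4). Of these 109 UMIs, 1 cell held 30.3%. In this cluster 238 genes were measured, of which 15.1% passed 1.5-fold upward and 11.8% downward, and 6 of the 10 genes were among them. Ccl17 had 1 UMI in the RGX-104 library and 0 in the control library, where a floor of 3 UMIs stands at 132 CPM. The medians after thinning were 5 of the 10 genes in both libraries, from 17 and 5 cells that were deep enough.

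Other genes of maturation were read from lists, described by their counts past 1.5-fold. Over all genes, 4.46% passed upward in mcDC1, 6.39% in mcDC2, 4.08% in mLC, 4.2% in rcDC1, 6.77% in rcDC2 and 7.8% in mono. Downward, the shares were 5.6%, 7.34%, 4.76%, 3.45%, 3.98% and 10.0% in the same order of types. Of 10 surface molecules of mature dendritic cells, 0 passed in mcDC1, 2 of 9 measured were higher in mcDC2, and 1 of 7 was higher in mLC, with 0 lower in these types. Outside migratory cells, 2 of 7 were higher in rcDC2 and 4 of 7 in mono. Those of rcDC2 were Cd86 at 1.90 (1.44 to 2.54) and Cd40 at 1.53 (0.96 to 2.53). Cd274, which encodes PD-L1, stood at 289.6 CPM in RGX-104 mcDC2 and 155 CPM in control mcDC2, a ratio of 1.87 (1.43 to 2.47). In mLC its ratio was 1.64 (0.98 to 2.78), an interval that included 1. Cd40, the receptor through which T helper cells license dendritic cells, had a ratio of 0.73 (0.66 to 0.81) in mcDC1. Of 16 genes of the NF-kappaB pathway, 0 passed in mcDC1 and mLC, and in mcDC2 1 was higher and 1 lower of 15. Those were Map3k14, which encodes the kinase of the alternative pathway, at 1.52 (1.03 to 2.28), and Traf2, at 0.58 (0.35 to 0.97). In mono, 2 of 13 were higher and 2 lower. Of 27 other genes of mature dendritic cells, 1 of 26 was higher in mcDC1, 2 of 25 in mcDC2 and 0 of 24 in mLC. In these types 0 were lower. In rcDC1, 3 of 18 were higher and 0 lower. In rcDC2, 1 was higher and 1 lower of 15, and in mono 2 were higher and 1 lower of 11. Ccl5 had ratios of 3.87 (2.92 to 5.20) in mono and 2.50 (1.93 to 3.25) in rcDC1. Nr4a3, a nuclear receptor gene linked to dendritic cell migration, was at least 1.5-fold higher in 5 of the 6 types and had a ratio of 1.49 (1.14 to 1.95) in mLC. Of 10 receptors and regulators of the chemokine pair, 0 passed in mcDC1 and mcDC2 and 1 of 8 was lower in mLC. In rcDC2, 3 of 9 of them were higher, Il13ra1 at 1.85, Il7r at 1.77 and Il4ra at 1.72. In rcDC1 and in mono, 1 of 7 was higher. Of 6 genes of the SOCS family and STAT5, 1 of 4 was lower in mcDC1, 1 of 4 was higher in mcDC2, and 0 of 3 passed in mLC. The gene was Socs3 in both, at 0.46 (0.27 to 0.77) in mcDC1 and 2.005 (1.08 to 3.99) in mcDC2. In rcDC1, 2 of 5 were higher and 1 lower, and in rcDC2 1 of 4 was lower. In mono, 1 of 3 was higher and 1 lower. The largest ratio of this list was that of Socs1 in mono, 5.59 (2.96 to 11.7), from 77 and 11 UMIs. Among 8 apolipoprotein L genes other than Apol7c, Apol10b alone was measured, in mcDC1 and mLC, with 50.2 CPM in RGX-104 mcDC1 and 85.6 CPM in control mcDC1, a ratio of 0.59 (0.45 to 0.77).

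The profiles of the genes over 12 points, the 6 compared types in each library, were compared with those of 6946 genes with at least 200 UMIs in APCs. Pearson's r was taken on log2(CPM + 10), and the points share their cells and fall into migratory and other types, so r is a description. Between members it ranged from 0.68 to 0.99 with a median of 0.94 over 45 pairs. The closest gene was Synpo2 for Nudt17 (0.998), Adcy6 for Cacnb3 (0.995), Bmp2k for Fscn1 (0.995) and Ndnf for Ccl22 (0.993). It was Dscaml1 for Socs2 (0.991), Castor2 for Relb (0.991) with Ccr7 second (0.987), and Map4k4 for Cd63 (0.990). The profiles least closely matched were those of Ccl17, nearest to Fxyd2 (0.986), Il4i1, nearest to B4galnt1 (0.978), and Apol7c, nearest to Cxcl16 (0.975).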

How the data were processed

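The authors deposited matrices of UMI counts for every gene in every barcode. The file headers name Cell Ranger 5.0.0, and mm10 and Seurat 5.0.3 come from the submitters' processing notes. The authors' deposited annotation tables hold, per cell, UMI and gene counts, the mitochondrial percent, a condition and a type name, but no barcode. Cells were joined to barcodes by these values, with genes counted if seen in at least 3 barcodes, and all 2944 RGX-104 and 2881 control cells matched 1 barcode. No doublet caller was run, since the deposited doublet class is singlet for each of these cells. Alternatives left out APCs with a TCR contig (5 RGX-104 and 6 control, from the deposited contig counts) and APCs with UMIs of at least 2 T cell or 2 B cell markers (81 and 61). UMIs were summed per type and library. Intervals at 95% are exact Poisson (CPM), conditional binomial (ratios) and Clopper-Pearson (shares), and cover counting error only. Of these, the ratio interval alone was tried on simulated counts, which were Poisson draws without spread between cells. Measured means at least 50 UMIs over both libraries, compared types have at least 50 cells in each, and calls mean past 1.5-fold. Cells were thinned to 2000 UMIs. From each list up to 4 genes with the largest ratios could be named, and the other genes named are the 10 members and the checks. Members and lists were chosen with earlier results of these data known. Positions and promoters are from RefSeq (GRCm38.p6, the assembly behind mm10). Alternatives were TMM (edgeR 4.0.16, R 4.3.3) and median-of-ratios scaling, totals that leave out ribosomal protein, mitochondrial, immunoglobulin and receptor genes, minimums of 20 and 200 UMIs, means of CPM per cell, thinning, 2-fold, and leaving out the top cell of each gene. Python 3.11.15, NumPy 2.4.6, SciPy 1.17.1, pandas 2.3.3 and Matplotlib 3.10.9 were used.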

Additional observations from a re-analysis of the deposited data

Results flagged for a closer look

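For 4 genes the RGX-104 over control ratio lay above 1 in one type and below 1 in another, with both counting intervals clear of 1. Fscn1 had a ratio of 1.19 in mcDC2 and 0.78 in mcDC1, which differ by 1.52-fold. Nudt17 had a ratio of 1.40 in mcDC2 and 0.86 in mcDC1, which differ by 1.63-fold. Apol7c had a ratio of 2.20 in rcDC1 and 0.84 in mcDC1, which differ by 2.61-fold. Relb had a ratio of 1.30 in rcDC1 and 0.81 in mcDC1, which differ by 1.61-fold. These ratios are from summed UMIs. After thinning the log2 ratio was -0.01 for Apol7c in mcDC1 and 0.10 for Nudt17 in mcDC2. In rcDC1, 14 cells held 88.1% of the Apol7c UMIs in the RGX-104 library and 92.6% in the control library. A Relb UMI was held by 16 of 134 RGX-104 and 16 of 131 control rcDC1 after thinning. With 1 library per chow none of these differences was tested. How many of all genes have such opposite intervals was not counted, so the 4 genes have no background.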

How the results depend on the processing

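The log2 ratio of Ccl22 in mcDC2 was -0.00090 with means of CPM per cell, against 0.39 from summed UMIs, and that of Fscn1 in mLC was 0.028 with thinned cells, against -0.15. Of 312 values of single genes under the alternatives, 21 had the opposite sign, of which 2 had a counting interval clear of 1 from summed UMIs, those named above, and 19 had an interval that included 1. Of 67 migratory over resident values, 0 had the opposite sign and 13 moved by more than their counting interval. The 5 higher pairs became 7 with TMM, with median-of-ratios scaling and with means of CPM per cell, 6 with a minimum of 20 UMIs and without the top cells, 3 with a minimum of 200 UMIs, 9 with thinned cells and 3 at 2-fold. The 1 lower pair became 2 with a minimum of 20 UMIs, 2 with means of CPM per cell, 2 with thinned cells and 0 with a minimum of 200 UMIs. The median log2 ratio in rcDC1 was 1.14 with a minimum of 20 UMIs, against 0.76. With thinned cells the median was 0.14 in mcDC2, against 0.30, and 0.74 in rcDC2, against 0.18. The cause of these changes was not tested, apart from the minimums and the fold, which set how many genes count. A minimum of 200 UMIs left no gene in mono. TMM and median-of-ratios factors added 0.12 and 0.13 to every log2 ratio in mcDC2. No paired analysis was possible because each chow has 1 RNA library, and for the same reason no replicate could be left out. In the resident types and mono most of the genes had too few UMIs for a comparison at this depth.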

Other observations

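Barcodes that the annotation leaves out also held the program. Thinning was not applied to them. Of 5727 such barcodes in the RGX-104 library, 233 had UMIs of 5 or more of the 10 genes (4.07%, 3.57 to 4.61%), and of 4465 in the control library, 200 did (4.48%, 3.89 to 5.13%). Among annotated APCs, 484 RGX-104 and 371 control cells did. Of the 233 RGX-104 and 200 control barcodes, 84 and 74 had at least 5% mitochondrial UMIs, 91 and 103 had 800 genes or fewer, and 164 and 153 held UMIs of fewer than 2 T cell and fewer than 2 B cell markers. Their median depth was 2707 UMIs in the RGX-104 library and 1757 UMIs in the control library.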
